A study of Mus musculus with 82 samples.

Results

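The Mir290-295, Mir302-Mir367 and Mir17hg (miR-17-92) clusters of microRNA genes that are known for their high activity in embryonic stem (ES) cells or in dividing cells were followed through the nascent RNA libraries of the series. A cluster was taken as the stretch from 5 kb upstream of its first annotated microRNA hairpin to 5 kb downstream of its last, and a read was called sense when its RNA ran on the strand of the hairpins. The 3 windows held 7, 5 and 6 sense hairpins, 18 of the 1228 microRNA genes annotated in the GRCm38 RefSeq release. The Mir290-295 window was chr7:3213626-3225841 (12.216 kb), the Mir302-Mir367 window was chr3:127540228-127550807 (10.58 kb) and the Mir17hg window was chr14:115038671-115049506 (10.836 kb), all on the plus strand of GRCm38.

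All libraries came from V6.5 mouse ES cells, an established line of a C57BL/6 by 129/sv cross, grown in serum and leukaemia inhibitory factor on gelatin with no treatment. Nuclei or permeabilised cells were given propargyl nucleotides, so that each transcribing RNA polymerase added a nucleotide that ends the chain and can be clicked onto a DNA barcode. The groups differed in how this was done: scGRO–seq used single nuclei sorted 1 to a well (10 batches), inAGTuC used pools of intact nuclei in wells (4 libraries) and AGTuC used bulk nuclei opened with a higher concentration of the detergent sarkosyl (2 libraries of 1 batch, Exp125c, so that batch and assay cannot be told apart). The first 2, which keep nuclei intact, are called the nuclear assays here. Nothing in the labels says that the batches were separate cultures, and p-values therefore measure only the spread between these samples.

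One molecule was counted per unique molecular identifier (UMI) at the base where its RNA ended. After filtering, scGRO–seq held 2525 cells from 35 plates with a median of 3430 UMIs (1177 to 51431 per cell) and 223119 to 4928371 UMIs per batch, against 623265 to 1462003 UMIs per inAGTuC library and 2231837 and 4755740 in AGTuC. The plates reuse barcodes, and 226 of 254 barcode sequences occurred in more than 1 library, so molecules found in more than 1 library were left out. This removed 0.32 to 67.6% of the reads of a scGRO–seq library, 4.67 to 23.55% in inAGTuC and 0.245 to 0.511% in AGTuC, so the step weighed unequally on the assays (with every read kept, the differences in level of the 3 clusters between assays stayed on the same side of the threshold, and the Mir290-295 upstream share passed it). Levels are given as UPM, UMIs per 1000000 UMIs of the sample. The ES cell marker genes summed to 339 to 1667 UPM in scGRO–seq, 461 to 969 in inAGTuC and 1785 to 1906 in AGTuC. The 6 fibroblast feeder genes summed to 5.51 to 35.9, 10.95 to 19.3 and 6.27 to 8.20, with Col1a2, Col3a1, Postn and Dcn at 0 in AGTuC. The 5 endoderm genes summed to 11.4 to 53.01, 17.9 to 48.7 and 20.2 to 21.7 UPM in scGRO–seq, inAGTuC and AGTuC, and the 4 mesoderm genes to 0 to 17.3, 3.65 to 14.4 and 5.05 to 7.17. The 4 neural genes summed to 5.78 to 49.3, 15.1 to 20.9 and 77.5 to 91.3, so AGTuC was above every nuclear sample. One inAGTuC library, Exp261_c16, stood apart from the other 3 at Mir302-Mir367 and was the highest of them at Mir17hg, and Exp234_c11 was the lowest at Mir290-295. A sample labelled scGRO–seq of the same name shared 99.7% of its molecules with it, and both were counted once, under the inAGTuC label. The labels do not settle which is right, so every inAGTuC value of Exp261_c16 carries that doubt.

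MicroRNAs are cut from long primary transcripts. The nuclear enzyme Drosha, with its partner Dgcr8, releases each hairpin from the primary transcript, the cytoplasmic enzyme Dicer1 trims the hairpin to a short duplex, and one strand guides an Argonaute protein to messenger RNAs through its seed, bases 2 to 8 of the mature microRNA. The Mir290-295 cluster is the best known microRNA locus of mouse ES cells and of the early embryo. The Mir302-Mir367 cluster is associated with the later, primed state of pluripotency and lies inside Larp7, a gene for a protein that binds the 7SK RNA, on the opposite strand to it. The Mir17hg transcript is driven by Myc and E2f factors and is used widely by dividing cells. Nascent RNA assays are designed to capture primary transcripts rather than mature microRNAs. Many UMIs of the nuclear assays ended at a mature arm, as described below, and these are counted in the window levels. Whether they came from transcribing polymerases was not tested.

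The mature sequences show why these clusters are described together. RefSeq (GRCm38.p6) held at least 1 mature sequence for 18 of the 18 hairpins, 33 in all with 21 different seeds. For Mir292 and Mir302a it held only the 5p arm, so their 3p arms are missing from the list and the counts below. The following 16 mature sequences are those whose seed, in capitals, holds the letters GUGC or is AUUGCAC, letters that recur between clusters.
miR-290a-3p: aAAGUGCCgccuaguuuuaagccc
miR-291a-3p: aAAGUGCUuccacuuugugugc
miR-291b-3p: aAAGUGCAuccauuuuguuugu
miR-293-3p: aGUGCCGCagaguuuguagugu
miR-294-3p: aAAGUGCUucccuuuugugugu
miR-295-3p: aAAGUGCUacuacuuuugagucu
miR-302b-3p: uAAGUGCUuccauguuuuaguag
miR-302c-3p: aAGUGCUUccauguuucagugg
miR-302d-3p: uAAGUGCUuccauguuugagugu
miR-367-3p: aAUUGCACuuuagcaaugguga
miR-17-5p: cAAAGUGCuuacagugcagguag
miR-20a-5p: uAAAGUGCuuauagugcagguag
miR-18a-5p: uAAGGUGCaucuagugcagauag
miR-19a-3p: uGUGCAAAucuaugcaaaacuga
miR-19b-3p: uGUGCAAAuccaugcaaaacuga
miR-92a-3p: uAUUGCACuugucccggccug
Among the sequences held, the seed AAGUGCU was shared by 5 microRNAs from 2 clusters, miR-291a-3p, miR-294-3p, miR-295-3p, miR-302b-3p and miR-302d-3p. The seed AUUGCAC joined miR-367-3p of the Mir302-Mir367 cluster with miR-92a-3p of Mir17hg. The Mir17hg members miR-17-5p and miR-20a-5p carried AAAGUGC, which holds the same run of letters AAGUGC set 1 base further from the 5′ end. Another 3 seeds were shared within 1 cluster by 5p arms that are not shown, CUCAAAC and CUUUAAC by 3 microRNAs each and AUCAAAG by 2. Of the 10 hairpin 3p arms held for Mir290-295 and Mir302-Mir367, 7 had these letters within the seed.

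Mir290-295 was transcribed at the highest level of the 3 clusters in most samples. Its window gave 1067 sense UMIs in scGRO–seq, 496 in inAGTuC and 5158 in AGTuC. Scaled to the total of each sample, the scGRO–seq batches ran from 29.6 UPM (Exp263) through a median of 93.6 to 430 (Exp156). The inAGTuC libraries gave 136 (Exp208_c12), 128 (Exp208_c14), 75.2 (Exp234_c11) and 135 (Exp261_c16) UPM. The AGTuC libraries gave 768 and 724. Both AGTuC libraries were above every nuclear sample, and the scGRO–seq batches overlapped the inAGTuC libraries on both sides. Batch Exp208 was run in both nuclear assays, and its scGRO–seq cells gave 133 UPM, between its 2 inAGTuC libraries.

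Mir17hg came next. The window gave 636, 195 and 1680 sense UMIs in scGRO–seq, inAGTuC and AGTuC. The scGRO–seq batches ran from 25.9 (Exp263) through a median of 47.9 to 89.6 UPM (Exp156). The inAGTuC libraries gave 33.7, 32.9, 19.2 and, in Exp261_c16, 81.8 UPM, and the AGTuC libraries gave 242 and 240. As for Mir290-295, both AGTuC libraries lay above all 14 nuclear samples. Within batch Exp208, scGRO–seq gave 43.6 UPM beside the 33.7 and 32.9 of inAGTuC.

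Mir302-Mir367 was the weakest and the least even. Its window held 164 sense UMIs in scGRO–seq, 43 in inAGTuC and 7 in AGTuC. Of the 10 scGRO–seq batches, Exp160, Exp211 and Exp260 had no sense UMI. By a limit of 3 counts per batch this allows up to 8.08, 4.47 and 8.26 UPM. This limit and the Wilson intervals for shares of cells below cover counting error only. Exp156 and Exp208 had 1 UMI each. The other batches gave 8.26 (Exp260b), 16.03 (Exp263), 18.8 (Exp246), 20.3 (Exp236, 100 UMIs) and 22.5 UPM (Exp264a). In inAGTuC, Exp261_c16 gave 26.8 UPM from 39 of the 43 UMIs, and the other 3 libraries gave 3.21, 1.22 and 0.684 from 2, 1 and 1 UMI. AGTuC gave 0.896 and 1.05 UPM from 2 and 5 UMIs. The higher values therefore sat in 5 scGRO–seq batches and 1 inAGTuC library. Exp260b, the lowest of these batches, was no higher than the limit for Exp260 and near that for Exp160, so it is not set apart from them.

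**Figure D1:**
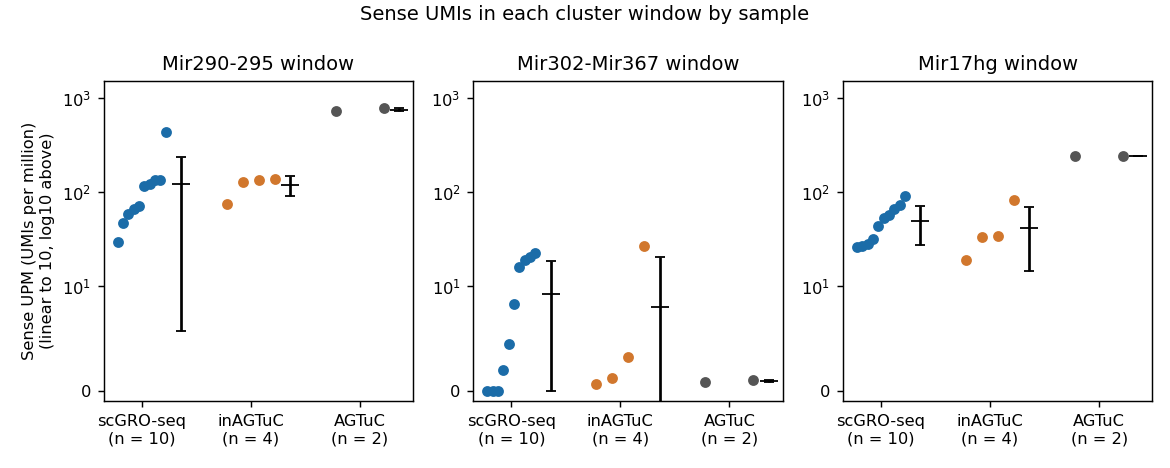
Sense UPM (vertical axis, linear to 10 and log10 above) in each cluster window; each point is 1 scGRO–seq batch, inAGTuC library or AGTuC library, and the bar beside each group is the mean with its SD (cut at the axis where the SD passes below 0). The AGTuC libraries at 724 to 768 and 240 to 242 lie above every nuclear sample for Mir290-295 and Mir17hg, and below the 5 highest scGRO–seq batches for Mir302-Mir367.

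The order of the clusters was compared per kb of window within each scGRO–seq batch, by exact two-sided sign-flip tests over 10 batches with Benjamini-Hochberg adjustment over the 3 pairs. Mir290-295 exceeded Mir302-Mir367 by 9.01 ± 9.80 UPM per kb (SD, n = 10), in 10 of 10 batches (exact p = 0.00195, the smallest that 10 batches allow, adjusted p = 0.00293). Mir302-Mir367 was below Mir17hg by a mean of -3.69 ± 2.15, in 10 of 10 batches (exact test, adjusted p = 0.00293). Mir290-295 exceeded Mir17hg by 5.33 ± 8.24 in 8 of 10 batches (exact test, adjusted p = 0.0215). In the remaining pair of batches, Exp236 and Exp246, Mir17hg was the higher, at 6.14 against 5.86 and 6.73 against 4.81 UPM per kb. All 3 pairs passed the test, but both differences from Mir290-295 were smaller than their SD between batches, and the Mir290-295 and Mir17hg order was turned in 2. Without Exp156 the difference between these was 2.92, with adjusted p = 0.043 by the same exact test. AGTuC had the same order, with 62.9 and 59.3 for Mir290-295, 22.3 and 22.1 for Mir17hg and 0.0847 and 0.0994 for Mir302-Mir367.

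These levels can be placed among all microRNA loci, taking hairpins within 10 kb on 1 strand as 1 locus. Of 21 loci with at least 3 hairpins, Mir290-295 ranked 1 in all 3 assays, Mir17hg ranked 2, 3 and 2 in scGRO–seq, inAGTuC and AGTuC, and Mir302-Mir367 ranked 11, 14 and 12, by UMIs pooled over the samples of an assay. The Mir302-Mir367 rank moved to 14 in scGRO–seq with each batch weighing the same, and to 18 in inAGTuC without Exp261_c16, where that of Mir290-295 stayed at 1 and Mir17hg at 2 and 3. Among all 975 loci, many of which lie inside other genes, Mir290-295 ranked 16, 16 and 1 in scGRO–seq, inAGTuC and AGTuC, Mir17hg 22, 23 and 8, and Mir302-Mir367 115, 246 and 658. Without Exp261_c16 the inAGTuC ranks were 11 for Mir290-295, 40 for Mir17hg and 813 for Mir302-Mir367, and with each scGRO–seq batch weighing the same Mir302-Mir367 ranked 230 there. The clusters related to Mir17hg by sequence were lower: the locus that starts with Mir25, inside Mcm7, stood at 2.14 and the X-linked locus that starts with Mir363 at 2.02 UPM per kb in pooled scGRO–seq, against 5.04 for Mir17hg.

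The assays were compared with limma over 16007 features (genes and the 3 windows) in one fit of the 16 samples, with p-values adjusted over all of them. Between scGRO–seq and inAGTuC none of the 3 windows was called, and 0% of all features were called (896 features had an unadjusted p under 0.05, none was called with log values and a trended fit, and 33 without Exp261_c16). The difference was -0.39 ± 0.40 on the log2 scale (SE) for Mir290-295 (95% interval -1.20 to 0.43, adjusted p = 0.93), 0.28 ± 0.37 for Mir17hg (-0.47 to 1.04, adjusted p = 0.95) and 0.89 ± 0.81 for Mir302-Mir367 (-0.76 to 2.54, adjusted p = 0.93). The intervals do not exclude changes of over 1 log2 unit, so these values do not show that the assays agree. Single inAGTuC libraries moved these values: without Exp261_c16 the Mir302-Mir367 difference was 1.96 and that of Mir17hg 0.72, and without Exp234_c11 they were 0.10 and -0.066, none of them called. Exp261 also had scGRO–seq cells outside the 10 batches, which gave 24.7, 17.1 and 3.80 UPM for Mir290-295, Mir17hg and Mir302-Mir367, each below the library labelled inAGTuC Exp261_c16 at 135, 81.8 and 26.8.

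Against AGTuC, Mir290-295 and Mir17hg were both lower in inAGTuC. The difference was -2.69 ± 0.57 for Mir290-295 (adjusted p = 0.000395) and -2.70 ± 0.50 for Mir17hg (adjusted p = 0.000105), by limma. In this comparison 46.2% of all features were called, 31.3% as lower and 14.8% as higher, and the median of all features was -0.72, so a lower value was common and these were lower by more than the median feature. Both calls held with the experiment of the labels as a random block (limma, adjusted p = 0.0043 and 0.0024), and both were lost when all scGRO–seq batches also entered that fit (adjusted p = 0.14 and 0.062). With all scGRO–seq batches and no block, the Mir290-295 call was also lost, at the same -2.69. For Mir302-Mir367 the difference was 1.78 ± 1.21 and was not called (adjusted p = 0.22), and it was 0.71 without Exp261_c16 and -0.21 with 10 kb on either side of the hairpins. Taken directly between scGRO–seq and AGTuC, a difference added after the data were seen, Mir290-295 was lower by -3.08 ± 0.51 (adjusted p = 9.67e-06) and Mir17hg by -2.42 ± 0.44 (adjusted p = 3.44e-05), where 63.4% of all features were called, 47.1% as lower and 16.3% as higher. A window with 2 kb on either side of the hairpins leaves out both the onset of Mir17hg and a downstream AGTuC rise, described below. With it the Mir17hg differences from AGTuC were smaller, -1.21 in scGRO–seq (adjusted p = 0.0222) and -1.73 in inAGTuC (adjusted p = 0.00819), by limma. Median-of-ratios scaling, which moved the median of all features from -0.93 to -0.054, gave -1.48 for Mir17hg and -2.24 for Mir290-295 in scGRO–seq. Counting UMIs of a barcode within 50 bases once turned the scGRO–seq differences to 1.31 and 3.06, and those of inAGTuC to 0.89 and 3.21 (adjusted p = 0.19 for the 0.89 of Mir17hg by limma), with 1 barcode in each AGTuC library. Mir302-Mir367 was higher by 2.67 ± 1.08 (adjusted p = 0.0310), although 3 batches had no UMI. That call was lost with the experiment of the labels as a random block (2.70, adjusted p = 0.0978), without batch Exp236 (2.27, adjusted p = 0.056) and without either AGTuC library. With 10 kb on either side of the hairpins the difference was 0.040. Markers moved as well among the cell type genes tested between inAGTuC and AGTuC. Of these, 9 of 10 ES cell genes were lower and 0 of 4 endoderm genes were called. Of 3 neural genes 1 was higher (Pax6) and the other 2 lower, and 1 of 2 mesoderm genes was higher (Kdr). Of 3 feeder genes 1 was higher, Dcn, with 51 UMIs in all and 0 in AGTuC. It passed the minimum of 50 UMIs only through the nuclear samples, so no weight is put on its call. It could be fitted in 9 of 16 fits that left out 1 sample. Col1a2, Col3a1 and Postn, also at 0 in AGTuC, fell under that minimum and were not tested. The part of the markers in the cluster differences was not tested. The AGTuC libraries are bulk samples, in which fewer cells of a type and less RNA per cell cannot be told apart.

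Mir302-Mir367 lies on the strand opposite Larp7, so sense and antisense UMIs were set side by side in each batch as the log2 ratio of sense to antisense with 1 UMI added to each. For Mir290-295 the ratio was 2.95 ± 0.84 (SD, n = 10), above 0 in 10 of 10 batches, and for Mir17hg it was 2.78 ± 0.93, also above 0 in 10 of 10 (exact sign-flip tests, adjusted p = 0.00293 for both). For Mir302-Mir367 it was 0.04 ± 1.45, above 0 in 6 batches and below 0 in 3 (exact p = 0.90). The antisense UMIs of that window, which run with Larp7, numbered 103 in scGRO–seq, 22 in inAGTuC and 40 in AGTuC. They came to a mean of 7.29 ± 5.22, 4.63 ± 3.91 and 6.23 ± 1.97 UPM, which overlap. In AGTuC the Larp7 strand held 17 of 19 and 23 of 28 UMIs of the window, in Exp236 it held 65 of 165, and in Exp261_c16 it held 15 of 54. Larp7 as a whole gene was at 11.4 UPM on average in scGRO–seq, 7.34 in inAGTuC and 21.999 in AGTuC, lower in inAGTuC than in AGTuC by -1.58 ± 0.66 (limma, adjusted p = 0.047), called in 9 of 16 fits that left out 1 sample (adjusted p up to 0.266, without AGTuC Exp125c_c01).

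The first UMIs marked where each primary transcript began to be seen. Taking the first 50-base step with at least 5 UMIs over all samples that was followed by another, the onset was 800 bases before the first hairpin for Mir290-295, 100 before for Mir302-Mir367 and 2700 before for Mir17hg. The annotated long non-coding hosts of Mir290-295 and Mir17hg began past the first hairpin, D7Ertd143e 158 bases after it and the Mir17hg gene 719 bases after. That of Mir302-Mir367, Gm51018, began 139 bases before Mir302b, within 1 step of the onset. At Mir290-295 the 2 steps before the onset held no UMI in any assay, and the steps from -750 and -700 then held 71 and 32 UMIs in scGRO–seq, 23 and 6 in inAGTuC and 73 and 10 in AGTuC. At Mir302-Mir367 the onset was less sharp, with 3 scGRO–seq UMIs in the 100 bases before it, 4 in the first step and 10 in the next.

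The 300 bases around each onset, 250 before and 50 from it, are shown because the UMIs begin there. For Mir290-295 and Mir17hg this is away from the annotated host, and for Mir302-Mir367 the annotated start lies inside the stretch. Capitals mark the letters TATAA, searched on both strands as the core of a TATA box.
Mir290-295, chr7:3217576-3217875, plus strand of GRCm38: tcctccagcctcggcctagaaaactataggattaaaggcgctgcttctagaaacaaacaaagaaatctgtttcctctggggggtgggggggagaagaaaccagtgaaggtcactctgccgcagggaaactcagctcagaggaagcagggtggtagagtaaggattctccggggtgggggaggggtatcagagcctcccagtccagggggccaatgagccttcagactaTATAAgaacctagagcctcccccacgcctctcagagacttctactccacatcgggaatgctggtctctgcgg
Mir302-Mir367, chr3:127544878-127545177, plus strand of GRCm38: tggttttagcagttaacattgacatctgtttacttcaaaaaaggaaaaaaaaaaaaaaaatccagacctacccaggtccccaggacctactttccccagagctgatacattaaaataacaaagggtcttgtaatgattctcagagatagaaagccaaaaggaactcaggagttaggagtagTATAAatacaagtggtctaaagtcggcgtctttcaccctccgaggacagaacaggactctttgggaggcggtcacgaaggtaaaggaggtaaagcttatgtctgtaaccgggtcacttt
Mir17hg, chr14:115040721-115041020, plus strand of GRCm38: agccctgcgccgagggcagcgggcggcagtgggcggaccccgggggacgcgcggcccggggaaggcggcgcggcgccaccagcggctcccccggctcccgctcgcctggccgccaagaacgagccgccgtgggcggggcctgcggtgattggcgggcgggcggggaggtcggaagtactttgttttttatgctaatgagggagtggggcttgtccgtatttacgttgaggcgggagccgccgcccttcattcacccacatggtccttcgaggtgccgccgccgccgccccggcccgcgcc
The Mir290-295 stretch held TATAA once, at -822 from the first hairpin, and the Mir302-Mir367 stretch once, at -169. The Mir17hg stretch did not hold these letters on either strand. Of 32851 RefSeq promoters of the same length, 17.5% held TATAA on the gene's strand and 24.9% on either, so a match alone is not rare. The 3 stretches differed in base composition: Mir17hg was 74% G and C with 41 CpG dinucleotides, Mir290-295 55% with 7, and Mir302-Mir367 41.7% with 6, where the promoters had medians of 52.7% and 7.

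Within the Mir290-295 window, the UMIs downstream of the last hairpin set AGTuC apart. They came to 340 and 355 UPM there, against 0 to 17.9 in scGRO–seq and 1.60 to 13.4 in inAGTuC. Upstream of the first hairpin AGTuC gave 89.2 and 94.1 UPM, above the inAGTuC range of 22.5 to 25.99 and above 9 of 10 scGRO–seq batches, which gave 8.63 to 41.6, with Exp156 at 125. Its smaller upstream share is thus not a lower upstream level. In scGRO–seq 27.8 ± 7.43% of the sense UMIs (SD, n = 10) lay upstream of the first hairpin and 4.03 ± 2.60% downstream of the last. The inAGTuC libraries had 1.18, 10.5, 2.73 and 3.57% downstream. The AGTuC libraries had 12.3% upstream in both and 46.2 and 46.95% downstream. The downstream shares of the 14 nuclear samples, 0 to 10.5%, did not overlap those of AGTuC, a difference that was not tested. In AGTuC the peak was the step from 3000 to 3249 bases past the first hairpin, beyond the annotated end of D7Ertd143e, with 707 UMIs or 405 UPM per kb. The same step held 2 UMIs in scGRO–seq and 0 in inAGTuC. The upstream share was 15.5 percentage points higher in scGRO–seq than in AGTuC, in 9 of 10 batches (exact permutation p = 0.0455, smallest possible 0.0152), which did not pass after adjustment over the 3 clusters (adjusted p = 0.136). Beside those that left out a sample, it passed in 5 of 9 alternatives, at 15.1 to 20.9 points and adjusted p = 0.0455 by the exact permutation test, and was -13.9 points when UMIs of a barcode within 50 bases were counted once (adjusted p = 0.227).

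**Figure D2:**
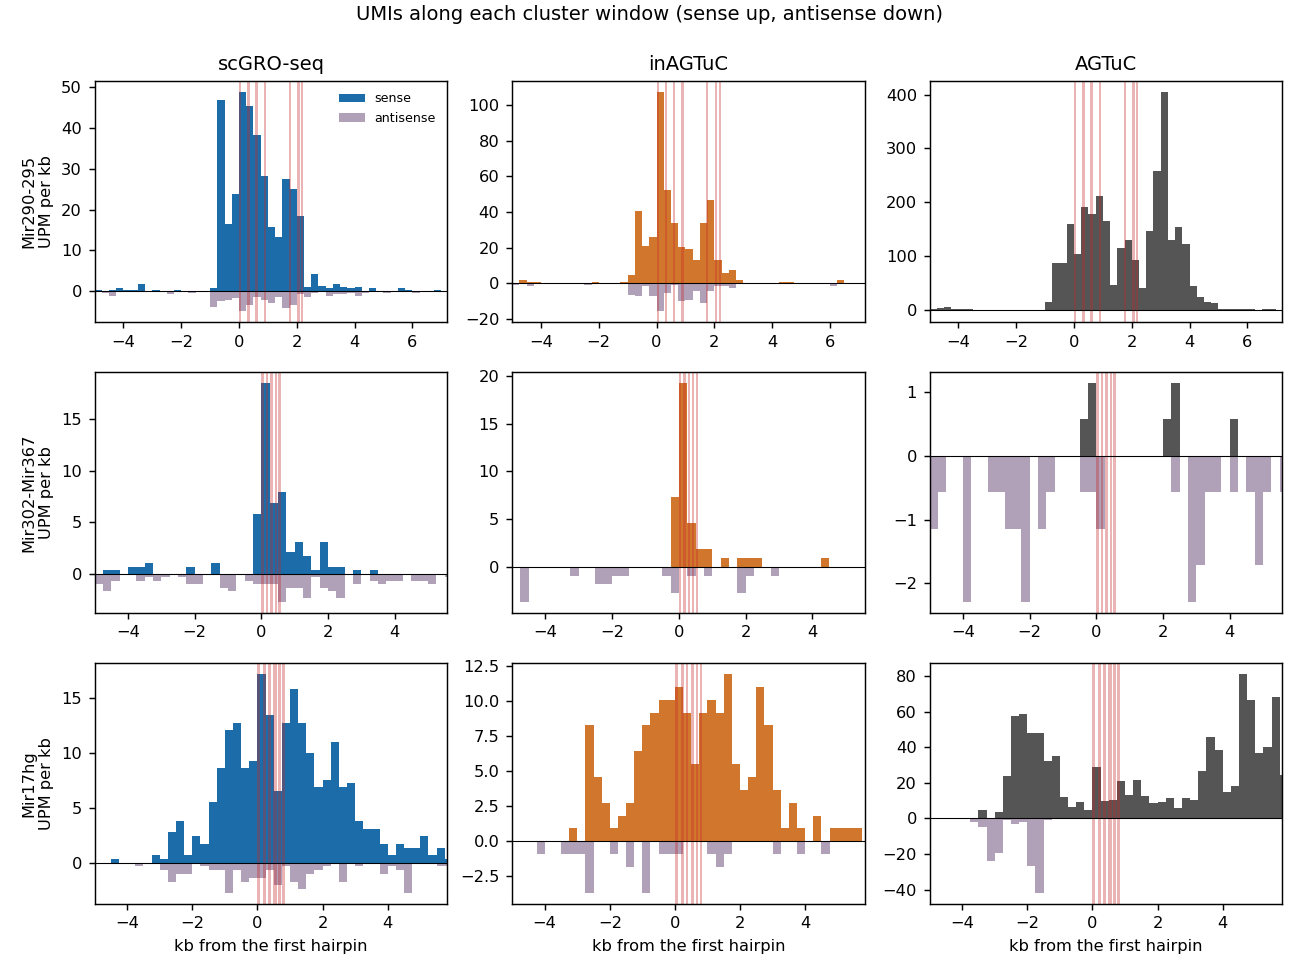
UPM per kb (vertical axes, scaled per panel) in steps of 250 bases along each window, against distance from the first hairpin in kb, pooled over the samples of each assay, with sense upward and antisense downward and hairpins as red bands. At Mir290-295 the AGTuC peak of 405 lies past the last hairpin, where scGRO–seq and inAGTuC hold 2 and 0 UMIs in the same step.

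Mir17hg was covered more alike. Upstream shares were 37.1 ± 14.3% in scGRO–seq, 38.1 ± 12.4% in inAGTuC and 36.2 ± 1.51% in AGTuC, and the scGRO–seq to AGTuC difference of 0.95 points had an exact permutation p of 0.924. Downstream shares were 46.3 ± 14.7, 45.9 ± 6.86 and 57.9 ± 2.76%. The position within these regions differed by eye: in AGTuC the upstream UMIs were highest from -2500 to -2001, at 57.8 and 58.96 UPM per kb, where scGRO–seq had 3.78 and 0.69 and inAGTuC 4.58 and 2.75. A second AGTuC rise from 4500 to 4749 reached 81.3 UPM per kb, against 1.37 in scGRO–seq. Antisense UMIs also separated the assays, since 217 of 217 in AGTuC lay upstream of Mir17, most of them in one group from -3250 to -2751 (42 and 34 UMIs per step) and another from -2000 to -1501 (47 and 73). In scGRO–seq 38 of 91 antisense UMIs were upstream, and in inAGTuC 17 of 25. None of these position differences was tested.

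For Mir302-Mir367 only the scGRO–seq and inAGTuC pools are deep enough to describe. Upstream, on hairpins, between hairpins and downstream lay 18.9, 43.3, 15.2 and 22.6% of the 164 scGRO–seq UMIs. The 43 inAGTuC UMIs, 39 of them from Exp261_c16, lay 18.6, 51.2, 9.30 and 20.9% in the same regions. None of the 7 AGTuC UMIs lay on or between hairpins. The upstream share could be had in 7 of 10 batches, the other 3 having no UMI, and its difference from AGTuC of -17.5 points was not called (exact permutation p = 0.333).

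**Figure D3:**
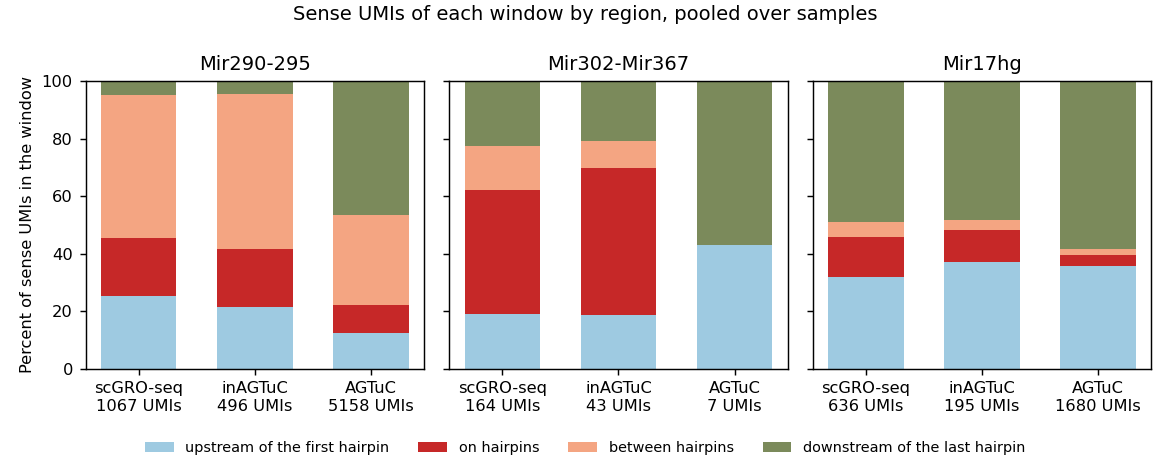
Percent of the sense UMIs of each window (vertical axis) that lay upstream of the first hairpin, on hairpins, between them or downstream of the last, pooled over the samples of each assay, with the number of UMIs under each bar. The downstream part of Mir290-295 is 4.78% in scGRO–seq and 46.7% in AGTuC; the AGTuC bar of Mir302-Mir367 rests on 7 UMIs.

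In scGRO–seq the hairpins held a larger share of the UMIs than of the window, 5 kb flanks included. From the first to the last hairpin, those of Mir290-295 cover 559 of 2216 bases. On and between them lay 216 and 532 UMIs in scGRO–seq, 100 and 268 in inAGTuC and 510 and 1605 in AGTuC. For Mir17hg (536 of 836 bases) it was 90 and 32 in scGRO–seq, and for Mir302-Mir367 (352 of 580) 71 and 25. Whether hairpins exceed their part of this span was not tested. The 7 Mir290-295 hairpins cover 4.58% of their window and held 19.2 ± 5.09% of its sense UMIs in scGRO–seq, 49.4, 10.5, 1.82 and 22.96% in the inAGTuC libraries and 9.86 and 9.90% in AGTuC. The 6 Mir17hg hairpins cover 4.95% and held 11.2 ± 8.26, 11.3 ± 5.56 and 3.88 ± 0.28%. The 5 Mir302-Mir367 hairpins cover 3.33% and held 32.1 ± 23.5% of the UMIs over the 7 scGRO–seq batches with any (0 to 61.5%), and 43.3% of the pooled ones, of which 100 of 164 were from Exp236. Between scGRO–seq and inAGTuC the hairpin share did not differ beyond the spread for any cluster, at -2.003, 6.13 and -0.17 points for Mir290-295, Mir302-Mir367 and Mir17hg (exact permutation tests, adjusted p = 0.963 for each, with 7 batches for Mir302-Mir367).

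All 18 hairpins had at least 1 UMI in scGRO–seq, 15 had one in inAGTuC and 13 in AGTuC. Which hairpin led depended on the assay. In scGRO–seq Mir290a led its cluster with 80 UMIs in 78 cells (82.7 UPM per kb), followed by Mir292 with 48 and Mir291b with 30. Of the 80, 40 were from Exp260b and 23 from Exp236, with 1 to 4 in each of the other batches, and without Exp260b the 3 held 40, 34 and 23. In inAGTuC Mir290a held 73 UMIs, 39 from Exp261_c16 and 30 from Exp208_c12, and no other hairpin of the cluster more than 7. In AGTuC Mir290a was the lowest of the 7 with 23 UMIs, and Mir291b (128), Mir291a (108) and Mir292 (100) were the highest. The later members Mir293, Mir294 and Mir295 held 13, 16 and 18 UMIs in scGRO–seq and 61, 41 and 49 in AGTuC.

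In the Mir302-Mir367 cluster the scGRO–seq hairpin UMIs fell on Mir302c (26 UMIs), Mir367 (21), Mir302b (15), Mir302a (7) and Mir302d (2). Without Exp236 these were 14, 9, 4, 1 and 0. In inAGTuC 20 fell on Mir302c, all of them from Exp261_c16, and 2 on Mir302a, and in AGTuC none fell on any of the 5. In the Mir17hg cluster Mir18 (33) and Mir17 (28) led in scGRO–seq, with Mir92-1 at 13 and Mir20a, Mir19a and Mir19b-1 at 7, 5 and 4. Of the Mir17 UMIs 13 came from Exp236 and 13 from Exp260b, and of those of Mir18 16 and 10. Without Exp236 Mir18, Mir17 and Mir92-1 held 17, 15 and 6, and without Exp260b 23, 15 and 12. Mir18 also led in AGTuC with 24 UMIs.

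In the nuclear assays many hairpin UMIs ended within 6 bases of the end of the 3p arm of the mature duplex, spread over several bases there. A pair of hairpins shows where this is, with the 3p arm in capitals (RefSeq, GRCm38.p6).
Mir290a, chr7:3218626-3218708, plus strand: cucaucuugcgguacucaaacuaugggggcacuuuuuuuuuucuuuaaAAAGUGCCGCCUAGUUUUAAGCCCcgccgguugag
Mir302c, chr3:127545363-127545430, plus strand: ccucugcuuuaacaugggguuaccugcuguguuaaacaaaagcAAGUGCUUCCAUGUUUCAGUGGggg
Of the scGRO–seq UMIs within 50 bases of the end of the Mir290a arm, 69 of 82 lay within 6 bases of it, and in inAGTuC 66 of 77. In AGTuC it was 3 of 29. At Mir302c it was 26 of 33 in scGRO–seq and 19 of 19 in inAGTuC, all from Exp261_c16, with none in AGTuC. Mir292 and Mir302a have no 3p arm held and were left out here. UMIs spread evenly within 50 bases of an arm end would have 12.9% within 6 bases. Over the 6 Mir290-295 hairpins with a 3p arm held it was 52.6% in scGRO–seq, 69.2% in inAGTuC and 7.24% in AGTuC. Mir290a carried most of this: the other 5 hairpins had 23 of 93 UMIs there in scGRO–seq (24.7%), none of them over 50%, 8 of 30 in inAGTuC (26.7%) and 35 of 496 in AGTuC (7.06%). For Mir302-Mir367 it was 68.3% of 60 and 90.5% of 21 UMIs, and without Mir302c it was 15 of 27 in scGRO–seq and 0 of 2 in inAGTuC. For Mir17hg it was 17.9, 20 and 9.43% of 56, 15 and 53 UMIs, near the even value by this limit of 6 bases. Its most used scGRO–seq base lay just outside the limit, 7 bases past the end with 6 UMIs, and the next base held 3. That of Mir290-295 lay just inside it, 6 bases past the end with 19 UMIs in scGRO–seq and 13 in inAGTuC. The limit therefore bears on the contrast between these clusters, and other limits were not tried.

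The share varied between samples. For Mir290-295 it ran from 0 (0 of 2 UMIs, Exp160) through a median of 51.9% to 80% (4 of 5, Exp156) in scGRO–seq, with 44 of 62 in Exp260b and 24 of 64 in Exp236. The inAGTuC libraries had 30 of 41, 4 of 9, 0 of 11 (Exp234_c11) and 40 of 46 (Exp261_c16), or 34 of 61 without the last, and the AGTuC libraries 13 of 170 and 25 of 355. For Mir302-Mir367 the 5 batches with such UMIs ran from 54.8% (17 of 31, Exp236) to 100% (7 of 7, Exp263). Of the 21 inAGTuC UMIs 20 came from Exp261_c16, with 19 near the end, and without that library 0 of 1 remained. The base with most UMIs near a Mir290a end, 6 bases past it, held 16 scGRO–seq UMIs from 16 cells of 2 batches, 13 in inAGTuC and 2 in AGTuC.

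Ends at the arm also occurred at other hairpins, and there too a single hairpin carried much of the pooled share. Over 714 other hairpins with a 3p arm the pooled shares were 51.3, 53.8 and 11.2% in scGRO–seq, inAGTuC and AGTuC. The nuclear values rested on 1 hairpin, Mir677, which gave 917 of the 1309 scGRO–seq UMIs near an end and 480 of 785 in inAGTuC. Without it the shares were 25.5 and 31.7%, beside 24.7 and 26.7% for Mir290-295 without Mir290a. Of the hairpins with at least 5 UMIs in an assay, 4 of 44 in scGRO–seq, 4 of 12 in inAGTuC and 1 of 81 in AGTuC had over 50% near the end, with medians of 20, 45 and 8.33%. The difference of the clusters from these hairpins was not tested. In AGTuC the Mir290-295 UMIs near the arms had their tallest step 13 bases before the arm end, with 48 UMIs, and the next 20 bases past it, with 26, while the nuclear assays had theirs within 6 bases.

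**Figure D4:**
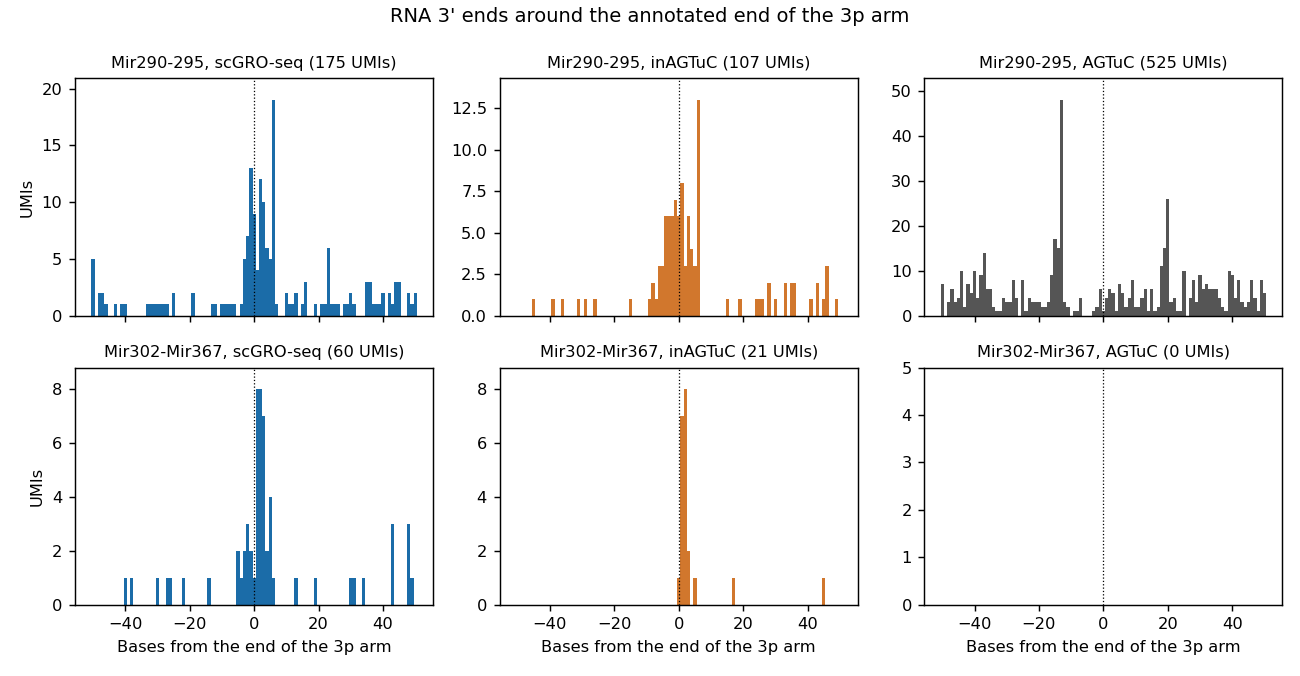
Number of UMIs (vertical axes, scaled per panel) by the distance of the RNA 3′ end from the annotated end of the 3p arm. The horizontal axis is in bases, with a dotted line at 0. UMIs are summed in each assay over the hairpins of Mir290-295 and Mir302-Mir367 with a 3p arm held, without Mir292 and Mir302a. The scGRO–seq and inAGTuC ends gather within 6 bases of the arm end, mostly at Mir290a for Mir290-295 (without it 23 of 93 and 8 of 30 UMIs) and, in inAGTuC, from Exp261_c16 for Mir302-Mir367. The AGTuC ends of Mir290-295 do not gather there, and AGTuC has no UMI there for Mir302-Mir367.

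Outside the hairpins, single positions were also hit in many cells. The most frequent scGRO–seq position of the Mir290-295 window, 415 bases after the start of Mir290a and between the Mir291a and Mir292 hairpins, held 27 UMIs from 27 cells of 4 batches, 13 in inAGTuC and 0 in AGTuC. The position at -743 from Mir290a, just past the onset, held 14 UMIs from 5 batches and 0 in AGTuC. The 1067 UMIs lay on 719 different positions, so the most frequent one held 2.53%.

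In single cells, Mir290-295 gave at least 1 sense UMI in 786 of 2525 cells, 31.1% (95% Wilson interval 29.4 to 32.96%). By batch the share ran from 9.06% (Exp263) through a median of 31.04% to 61.2% (Exp156). Mir17hg was seen in 519 cells, 20.6% (19.02 to 22.2%), with batches from 8.27 to 30.5%. Mir302-Mir367 was seen in 153 cells, 6.06% (5.19 to 7.06%), with batches from 0 to 11.3%. In the 3 batches without a UMI, 0 of 95, 0 of 112 and 0 of 120 cells allow shares of up to 3.16, 2.68 and 2.50% of cells with a UMI. These shares follow depth: from the shallowest to the deepest of 4 near equal parts of the cells of each batch, with median UMI counts of 2189 and 7192, the Mir290-295 share went from 20.3 to 44.1%, the Mir17hg share from 11.4 to 31.3% and the Mir302-Mir367 share from 3.00 to 10.9%. When each cell was thinned to 1000 UMIs, batch means were 11.1 ± 8.95% for Mir290-295 (SD, n = 10), 4.97 ± 2.11% for Mir17hg and 0.98 ± 0.99% for Mir302-Mir367.

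The sample has 1 cell type, so the share in a type that lacks the genes was approached through 16 windows around microRNAs of muscle, neurons, blood and pancreas. Their median share was 0.747% of cells, and 0.241% after thinning. The range was wide, so these windows are not all empty. Mir150, a microRNA of lymphocytes, reached 40.8%, or 16.7% after thinning, and 19.05 UPM per kb in scGRO–seq. The Mir124a-1 window came next at 7.83%, or 2.65% after thinning, with 18.2 UPM per kb in AGTuC. Both were above Mir302-Mir367 after thinning. After thinning, Mir290-295 and Mir17hg were above the median silent window in 10 of 10 batches by their lowest values, 2.95 and 2.63%, while Mir302-Mir367 ran from 0 to 2.37% and in 5 batches had at most 1 cell with a UMI. Windows around 15 other microRNA loci, listed as loci of ES or dividing cells, had a median of 6.10%, and 1.72% after thinning. Of these, 8 were let-7, whose maturation, rather than transcription, is blocked by Lin28a. The let-7 windows had a median of 4.33%, and 1.18% after thinning, and ran from 0.270 to 9.15% before it. For the 6 that are neither let-7 nor Mir34a the medians were 5.80 and 1.60%. All these medians are taken over the mean over batches of each window, not over pooled cells. The like mean over batches, before thinning, was 31.1% for Mir290-295, 16.8% for Mir17hg and 3.75% for Mir302-Mir367.

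Most cells with a UMI had 1. For Mir290-295 583 cells had 1 UMI, 152 had 2, 33 had 3 and 18 had 4 or more, up to 9 in a cell of Exp208. For Mir17hg 100 of 519 cells had more than 1, and for Mir302-Mir367 11 of 153. When UMIs of 1 cell less than 50 bases apart were merged, there remained 184, 85 and 7 cells with more than 1. Neighbouring UMIs of the same cell were a median of 601 bases apart in Mir290-295 (281 gaps, 38 under 50 bases) and 1144 in Mir17hg (117 gaps, 21 under 50). Both Mir290-295 and Mir17hg were seen in 208 cells, where the product of the batch shares gives 174. These cells had a median of 6128 UMIs, against 4120 in cells with either, and the part of depth in the overlap was not tested. Mir302-Mir367 was seen with Mir290-295 in 50 cells (product 44.9) and with Mir17hg in 41 (product 37.5).

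**Figure D5:**
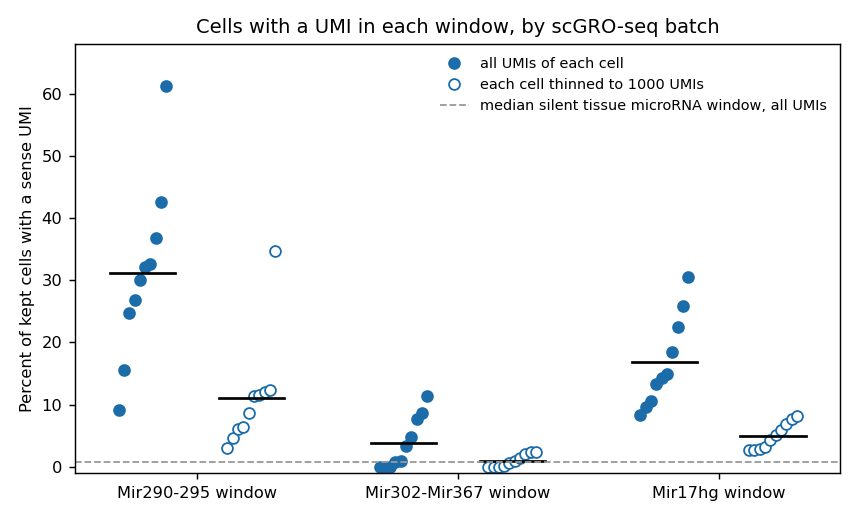
Percent of kept cells with at least 1 sense UMI (vertical axis) in each window, 1 point per scGRO–seq batch, with all UMIs (filled) and after thinning each cell to 1000 UMIs (open); black lines are means over 10 batches and the dashed line is the median of 16 silent windows with all UMIs, 0.747%. Batch Exp156 is highest for Mir290-295 before and after thinning, at 61.2 and 34.7%.

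The machinery that makes microRNAs was transcribed in all 3 assays, with each of the 20 listed processing genes tested. Between scGRO–seq and inAGTuC none was called. Between inAGTuC and AGTuC 3 of 20 were lower, none higher and 17 not called, a smaller share than the 31.3% lower and 14.8% higher of all features, with a median difference of -0.59 against -0.72 over all features. The 3 were Tarbp2, a partner of Dicer1 (-2.62 ± 0.63, limma adjusted p = 0.0013), Ran, the GTPase of nuclear transport (-2.59 ± 0.50, adjusted p = 0.000179), and Lin28a, which blocks let-7 maturation (-1.57 ± 0.52, adjusted p = 0.015, called in 14 of 16 fits that left out 1 sample, with 0.0969 without AGTuC Exp125c_c01). Drosha was at 122, 137 and 169 UPM on average in scGRO–seq, inAGTuC and AGTuC, and Dgcr8 at 81.1, 81.6 and 126. Neither was called, at -0.43 ± 0.44 and -0.71 ± 0.46.

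Of the 7 listed regulators of the clusters, 6 were lower in inAGTuC than in AGTuC, where 31.3% of all features were lower. Their median was -2.17, against -0.72 over all features. The pluripotency factors Pou5f1 (-1.85), Sox2 (-2.18) and Nanog (-1.91) and the growth regulators Myc (-2.84), Mycn (-2.17) and E2f1 (-2.24), were the 6, while E2f3 was at -0.55 ± 0.50 and not called. Pou5f1 was called in 13 of the 16 fits that left out 1 sample (limma adjusted p up to 0.0752, without AGTuC Exp125c_c01), and the other 5 in all 16. None of the 7 was called between scGRO–seq and inAGTuC. Of the listed targets of the seeds reported here, Cdkn1a, the p21 cell cycle inhibitor, was lower than in AGTuC (-1.90 ± 0.56, adjusted p = 0.00699, or 0.0694 without AGTuC Exp125c_c01), and Rbl2, Lats2, Tgfbr2 and Bcl2l11 were not called. The host D7Ertd143e was lower by -2.27 ± 0.58 (limma adjusted p = 0.00224), close to its window. The gene lies wholly inside that window and its UMIs are counted in both, so the closeness is no separate result. Gm51018, the host of Mir302-Mir367, was at 2.82 ± 1.47, not called. Its inAGTuC mean of 7.06 UPM rested on Exp261_c16 at 25.4, without which the mean was 0.94 and the difference 1.58. The Mir17hg gene, which begins after most hairpins, was at -1.003 ± 0.59 and not called, and at -1.61 without Exp261_c16 (limma adjusted p = 0.036). Of the genes in or next to the windows the remaining one, Nlrp12, was at 0.86 ± 0.81, not called.

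Each cluster was closest in pattern to a different set of genes, by Pearson's r of log2(UPM + 1) over 16 samples among 6459 features with at least 500 UMIs. The samples share the contrast with AGTuC, so r over the 14 nuclear samples follows each value. For Mir290-295 these were Rps24, a ribosomal protein (0.95, then 0.89), Nynrin (0.94, then 0.85) and the transcription factor Klf3 (0.93, then 0.82), where the median feature had 0.50. For Mir17hg they were Eef1e1 (0.94, then 0.87), the RNA-binding protein Hnrnpa3 (0.94, then 0.93) and Ints6, a subunit of the Integrator complex (0.93, then 0.85), with a median of 0.52. For Mir302-Mir367 they were the semaphorin Sema3e (0.84 in both), the lysophosphatidic acid receptor Lpar1 (0.83, then 0.85) and the fatty acid ligase Acsl5 (0.82 in both), with a median of 0.07. These are the highest of many values and are given as a description.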

How the data were processed

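The authors sequenced nascent RNA from V6.5 ES cells and, per the labels and methods, trimmed reads with Cutadapt, aligned them with bowtie2 to mm10 (GRCm38) and removed duplicates with UMI-tools. The deposited lists hold 1 line per read, with a mapping quality score of 3 to 44 that the authors' aligner gave, and no counts. UMIs were counted here. The 10 scGRO–seq batches are those whose cells the study displays, 53 of 76 deposited libraries, and the other batches entered as an alternative. The base at the RNA's 3′ end gave the position, the RNA strand being opposite the read's. A barcode counted as a cell from 1000 UMIs and 750 features upward, and a plate needed 24 such cells. No doublet caller was run. Molecules found in more than 1 library were left out, and the samples labelled scGRO–seq and inAGTuC Exp261_c16, which shared 99.7% of their molecules, were counted once, as inAGTuC (which label is right is not known). UMIs were summed by batch. Features with at least 50 UMIs were fitted with limma 3.58.1 (voom, lmFit, eBayes, scaled to totals, R 4.3.3), with Benjamini-Hochberg adjustment and a threshold of 0.05. Single values were tested with exact sign-flip or permutation tests written with NumPy 2.4.6, with a pseudocount of 1. The limma script was tested on simulated data. Named genes were the clusters, their hairpins, genes inside the windows, the 3 genes most like each cluster, the 3 processing genes with the largest called difference, and short lists of regulators, targets and markers. Members and lists were chosen with earlier results of these data known. Alternatives changed the cells, reads, windows, batches, scaling, model and filters, and left out each sample. Sequences are from RefSeq and motifs were matched by letters. One gene of the listed targets is not reported here.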

Additional observations from a re-analysis of the deposited data

Results flagged for a closer look

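Of 33 sets of values examined, 4 held a sample far from the rest of its group by Dixon's criterion at the 95% level, which chance meets in about 1 set in 20. In scGRO–seq the Mir290-295 level of batch Exp156 was 430 UPM, where the next batch had 135. Exp156 was also the shallowest batch (223119 UMIs), and its 96 UMIs came from 63 cells, with at most 4 in 1 cell. In inAGTuC the Mir290-295 level of Exp234_c11 was 75.2, below the next library at 128. The Mir302-Mir367 level of inAGTuC Exp261_c16 was 26.8, where the next library had 3.21. The Mir302-Mir367 upstream share of Exp261_c16 was 20.5%, where the other 3 libraries were at 0 with 1 or 2 UMIs each.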

How the results depend on the processing

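Of 579 recomputed values over 24 results, 557 were counted as unchanged and 518 of these kept their sign. The other 39 belonged to 10 results that were not called and lay on either side of 0. Unchanged meant the same side of the threshold or, for the shares of cells, which were not tested, a move smaller than the SD between batches. Counting UMIs of a barcode within 50 bp once turned 4 differences from AGTuC (inAGTuC: Mir17hg 0.89, Mir290-295 3.21; scGRO–seq: 1.31 and 3.06); each AGTuC library has 1 barcode, so this setting merges its molecules across cells. With all scGRO–seq batches, inAGTuC minus AGTuC for Mir290-295 was -2.69 with adjusted p = 0.052. The Mir302-Mir367 difference of scGRO–seq from AGTuC was not called with all barcodes (2.51), 50-bp merging (2.27), 10 kb flanks (0.040), all batches (2.07) or a trended fit on log values (1.48), nor in 3 of 16 fits that left out a sample (range over these fits 2.27 to 2.98). The cause was not tested. The Mir290-295 upstream share passed adjustment with no minimum of features (15.5 points), all barcodes (15.7), all reads (15.1), mapping quality of at least 10 (15.1) and without small RNA reads (20.9), each at the smallest p possible, and was -13.9 with 50-bp merging. Mir302-Mir367 values rest on few UMIs, 7 in AGTuC. With the experiment of the labels as a random block, an alternative chosen after seeing the data (16 samples of 13 experiments, correlation 0.63), Mir302-Mir367 in scGRO–seq minus AGTuC was 2.70 and not called. With all scGRO–seq batches and this block it was 1.99, and inAGTuC minus AGTuC was -2.52 for Mir17hg (adjusted p = 0.062) and -2.78 for Mir290-295 (adjusted p = 0.14), none called. Features called between inAGTuC and AGTuC numbered 7389, and from 2328 (all batches and the block) to 10038 (no minimum of UMIs) under the alternatives, with 3281 in a trended fit, 3269 without AGTuC Exp125c_c02, 4354 without Exp125c_c01, 3925 with all batches and 4098 with 50-bp merging; between scGRO–seq and AGTuC the range was 5014 to 15482 around 10145. Median-of-ratios scaling moved the median of all features from -0.72 to -0.030 (inAGTuC) and from -0.93 to -0.054 (scGRO–seq), and the Mir17hg difference of scGRO–seq from AGTuC to -1.48. By replicate number no paired analysis was possible because these numbers follow accession order, and the experiment of the labels was the block used instead.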

Other observations

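Mir302-Mir367 was not the only microRNA cluster with more UMIs per kb in the nuclear assays than in AGTuC. Among the loci with at least 3 hairpins, the imprinted locus of chromosome 12 that starts with Mir770 stood at 3.54 UPM per kb in pooled scGRO–seq, 4.22 in inAGTuC and 0.0172 in AGTuC. Its neighbours that start with Mir341 and Mir379 stood at 1.99 and 1.83 in scGRO–seq and at 0 and 0.00878 in AGTuC. The locus inside Sfmbt2 that starts with Mir466m had 1.46, 1.40 and 0.0255, and Mir302-Mir367 1.33, 0.932 and 0.0947, where 0.130 remained in inAGTuC without Exp261_c16 and 0.873 was the mean over scGRO–seq batches. By contrast Mir25, Mir363 and Mirlet7d stood at 2.14, 2.02 and 1.68 in scGRO–seq and at 12.6, 6.38 and 5.53 in AGTuC. These loci were picked after their values were seen and no difference was tested.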
